A study of Homo sapiens with 15 samples.

Results

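Integrins are the receptors with which blood cells hold on to matrix and to each other, and 9 genes encoding leukocyte integrin subunits were followed here in AML cells depleted of the ubiquitin ligase RNF5. The members were chosen by gene symbol as ITGAL, ITGAM, ITGAX, ITGB2, ITGA4, ITGA5, ITGA6, ITGB1 and ITGB7, which is 9 of 57820 gene identifiers in the files. All 9 were above 0 in every library, so that none was lost to a filter on low values. RNA-seq covered 3 established AML lines, each transduced with the empty vector pLKO as the control or with a short hairpin RNA against RNF5 (shRNF5). The 15 libraries comprise 3 pLKO and 2 shRNF5 libraries of MOLM-13, 2 and 2 of U937, and 3 and 3 of HL-60. The hairpin that was sequenced is not named, and the sources differ on the harvest (7 days after knockdown in the sample labels, 5 in the series design) and on the kit (a 3′-end kit in the labels, a directional poly(A) kit in the methods). A general statement of the study that experiments were repeated independently does not name these libraries, and neither the labels nor the RNA-seq methods say that they came from separate cultures, so the p-values below measure only the spread between these libraries, which may be technical.

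Each integrin is a pair of 1 alpha and 1 beta chain, and neither chain reaches the cell surface well without the other. ITGB2 encodes the beta2 chain, which pairs with the alpha chains of ITGAL (LFA-1, a receptor for ICAMs), ITGAM (Mac-1, a complement and fibrinogen receptor) and ITGAX (another complement receptor). ITGB1 encodes the beta1 chain, which pairs with ITGA4 (VLA-4, which binds VCAM1 and fibronectin), ITGA5 (the classical fibronectin receptor) and ITGA6 (a laminin receptor). The beta7 chain of ITGB7 takes the ITGA4 chain away from beta1 to form a receptor for gut vessels. In the marrow, beta1 integrins anchor leukaemic and normal progenitors to stroma, whereas beta2 integrins serve mature myeloid cells and lymphocytes.

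The promoters of the 4 members that rose over the 3 lines together (ITGA5, ITGB1, ITGA6 and ITGB7) and of ITGA4, the partner of ITGB1 that did not, are shown so that they can be compared with each other. They come from a RefSeq promoter table on GRCh38.p14, which matched 6 of the 9 members with 8 windows, and the 250 bases before each start are given 5′ to 3′ on the sense strand. The windows are chr12:54419267-54419516 for ITGA5, chr10:32958231-32958480 for ITGB1 and chr12:53207252-53207501 for ITGB7, all on the reverse strand, and chr2:172427336-172427585 for ITGA6 and chr2:181457136-181457385 for ITGA4, both on the forward strand. ITGB1 and ITGA6 each have 2 listed starts, of which the farther upstream is shown for ITGB1 and the farther downstream for ITGA6. Capitals mark matches, on either strand, to 6 motifs.
ITGA5: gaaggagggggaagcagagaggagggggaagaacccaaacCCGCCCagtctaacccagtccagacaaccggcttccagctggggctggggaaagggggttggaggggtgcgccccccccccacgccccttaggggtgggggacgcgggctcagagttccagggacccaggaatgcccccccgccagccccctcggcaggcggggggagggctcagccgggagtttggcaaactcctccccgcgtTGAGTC
ITGB1: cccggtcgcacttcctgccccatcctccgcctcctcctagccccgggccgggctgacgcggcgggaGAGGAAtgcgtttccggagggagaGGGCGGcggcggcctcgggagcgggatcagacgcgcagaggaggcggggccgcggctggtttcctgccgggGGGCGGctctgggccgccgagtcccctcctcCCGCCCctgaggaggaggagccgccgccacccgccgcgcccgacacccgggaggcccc
ITGA6: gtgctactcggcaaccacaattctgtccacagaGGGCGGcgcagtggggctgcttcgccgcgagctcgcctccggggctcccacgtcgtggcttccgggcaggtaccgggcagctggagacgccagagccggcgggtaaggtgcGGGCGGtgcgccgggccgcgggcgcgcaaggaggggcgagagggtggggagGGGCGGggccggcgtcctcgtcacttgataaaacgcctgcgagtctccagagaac
ITGB7: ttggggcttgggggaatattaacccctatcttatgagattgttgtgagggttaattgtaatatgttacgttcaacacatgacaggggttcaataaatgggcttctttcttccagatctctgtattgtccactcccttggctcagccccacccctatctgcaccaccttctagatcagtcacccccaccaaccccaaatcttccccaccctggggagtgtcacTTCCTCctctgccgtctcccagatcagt
ITGA4: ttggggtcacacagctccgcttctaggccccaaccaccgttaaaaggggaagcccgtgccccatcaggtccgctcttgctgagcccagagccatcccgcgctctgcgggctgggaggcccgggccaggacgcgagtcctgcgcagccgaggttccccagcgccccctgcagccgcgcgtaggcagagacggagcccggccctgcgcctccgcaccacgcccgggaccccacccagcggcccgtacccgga
The motifs searched, over the 250 bases before and 50 after the start, were the AP-1 site TGANTCA, the GC box GGGCGG, the PU.1 or ETS core GAGGAA, the E-box CACGTG, the TATA box TATAAA and the CCAAT box CCAAT, and none of these overlapped another in the windows printed. ITGA5 held 1 AP-1 match, from position -6 before the start to the first transcribed base, so that its last base lies beyond the stretch printed. An AP-1 match was present in 7.71% of all 35116 windows. GC boxes, present in 45% of windows, were found 3 times each before ITGB1 and ITGA6 and once before ITGA5. The PU.1 or ETS core, present in 27.9% of windows, occurred once before ITGB1, and in ITGB7 once before and once after the start. ITGA4 held no match to any of the 6, which says only that these letters are not in its window. No E-box, TATA box or CCAAT box (7.26%, 11.5% and 34.6% of windows) was found in the 5 windows shown. The listed starts that are not shown did hold such motifs. That of ITGB1 had 5 matches, all TATA or CCAAT boxes, and that of ITGA6 had an E-box, a TATA box and a GC box. Which start each line uses was not measured.

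RNF5 was lower in each shRNF5 library than in all pLKO libraries of its line, with log2 fold changes of -3.77 (MOLM-13), -3.64 (U937) and -3.25 (HL-60). The deposited values are read counts normalised within each line by the authors, and their spacing gave an estimated 9700000 to 63800000 counted reads a library. In MOLM-13 this depth went with the construct, at 63800000 and 24400000 with shRNF5 against 13400000, 15300000 and 9700000 with pLKO. Depth and construct cannot be told apart in that line, whereas in U937 and HL-60 the depths of the groups overlapped. As the values are not counts, no counting interval is given. A gene was called when a limma fit over all genes of the line gave a Benjamini-Hochberg adjusted p under 0.1 together with a log2 fold change beyond 0.4 in either direction, on the log2(normalised read count + 1) scale, which understates changes of low genes. By this rule 2.04% of 13026 genes were called in MOLM-13, 15.7% of 13165 in U937 and 25.9% of 12570 in HL-60.

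The fibronectin receptor chains ITGA5 and ITGB1 were higher in shRNF5 libraries of all 3 lines. Both genes stand in a list that the study drew from these same libraries, so their direction here is not independent evidence. ITGA5 lies on chromosome 12 from 54789045 to 54813050 (GRCh37, reverse strand) and ITGB1 on chromosome 10 from 33176201 to 33294720 (reverse strand). The normalised read count of ITGA5 was 2931, 3128 and 4065 in the pLKO libraries of MOLM-13 and 5155 and 6077 in its shRNF5 libraries. U937 gave 5947 and 5003 with pLKO against 12756 and 9174 with shRNF5. HL-60 gave 2231, 2748 and 2314 against 4334, 3267 and 4130. The lowest shRNF5 library thus stood above the highest pLKO library in every line. The ITGA5 log2 fold change was 0.74 ± 0.18 (SE) in MOLM-13, where the limma adjusted p of 0.115 missed the threshold, 0.99 ± 0.26 in U937 (adjusted p = 0.0516) and 0.68 ± 0.14 in HL-60 (adjusted p = 0.00953).

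ITGB1 was measured at 2033, 2800 and 2933 with pLKO and at 4291 and 4188 with shRNF5 in MOLM-13. U937 held 2875 and 1831 against 6858 and 3864, and HL-60 held 2247, 2064 and 2442 against 3812, 2438 and 3302. The groups did not overlap in MOLM-13 and U937, whereas in HL-60 the shRNF5 library at 2438 fell just under the pLKO library at 2442. Log2 fold changes for ITGB1 were 0.73 ± 0.18 (SE, adjusted p = 0.123) in MOLM-13, 1.17 ± 0.32 (adjusted p = 0.0563) in U937 and 0.48 ± 0.16 (adjusted p = 0.0602) in HL-60. Both chains were thus called in U937 and in HL-60 and neither in MOLM-13. In U937 both calls were lost when any 1 of the 4 libraries was left out, with log2 fold changes of 0.75 to 1.23 for ITGA5 and 0.75 to 1.58 for ITGB1. In MOLM-13 both chains passed without pLKO replicate 1 (0.65 for ITGA5, adjusted p = 0.088, and 0.56 for ITGB1, adjusted p = 0.0479). The call of ITGB1 in HL-60 was lost in 5 of 6 fits that left out 1 library, with log2 fold changes between 0.34 and 0.66 (0.66 without shRNF5 replicate 2, the library at 2438). The pseudogene ITGB1P1, a copy of ITGB1 from which reads can stray, had values of 11 to 51.

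**Figure D1:**
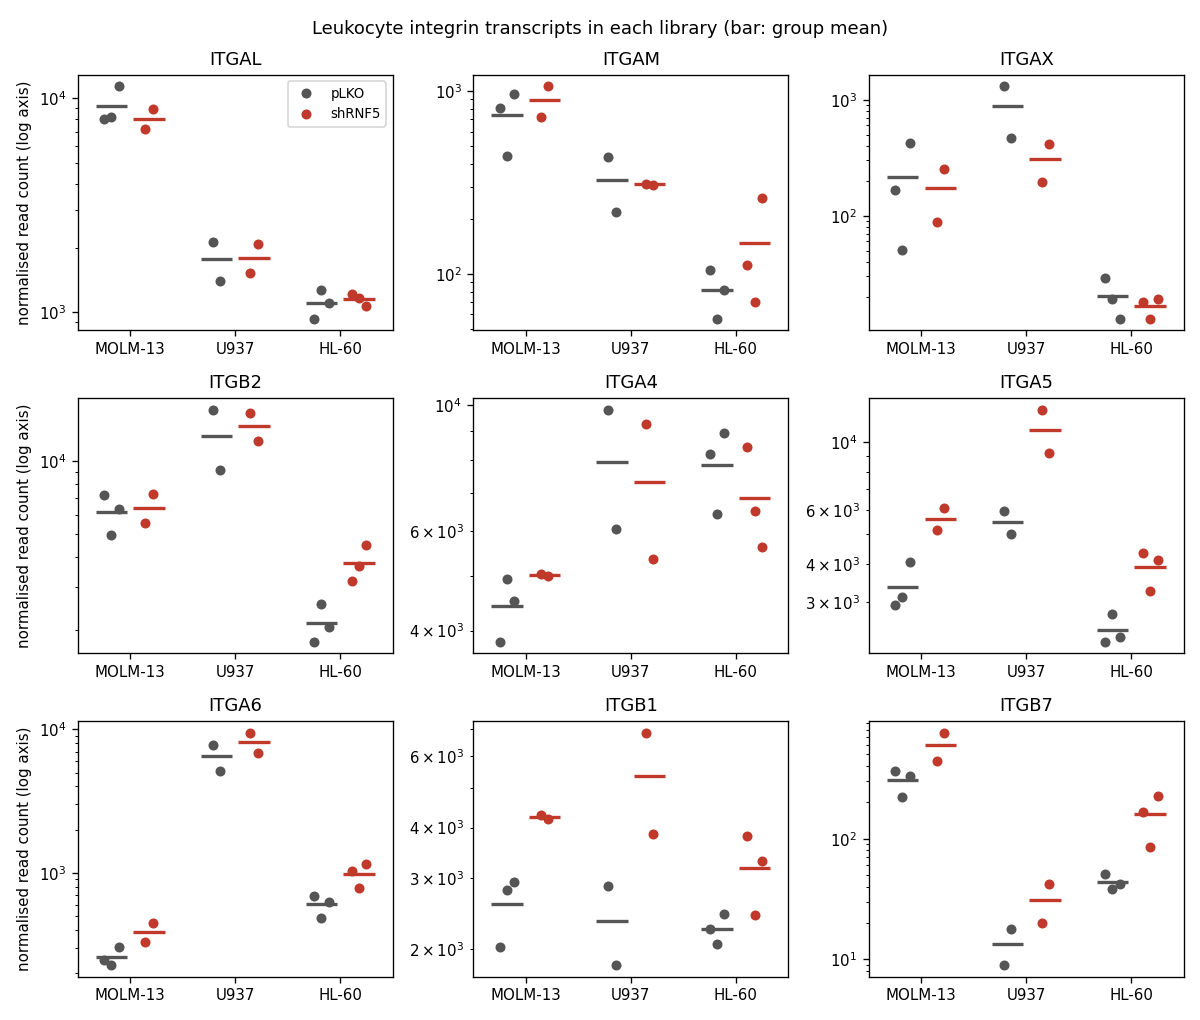
Normalised read count (logarithmic vertical axis) of each of the 9 integrin transcripts in each library, by cell line, with grey points for pLKO, red points for shRNF5 and a bar at each group mean. ITGA5 and ITGB7 have all shRNF5 points above all pLKO points in each of the 3 lines, while ITGAL, ITGAM, ITGB2 and ITGA4 overlap in U937.

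The laminin receptor chain ITGA6 was called higher in HL-60 and ITGB7 likewise, and neither was called in the other lines. ITGA6 lies on chromosome 2 from 173292082 to 173371187 (forward strand) and ITGB7 on chromosome 12 from 53585107 to 53601066 (reverse strand). For ITGA6, HL-60 had 689, 487 and 631 with pLKO and 1029, 781 and 1148 with shRNF5, a log2 fold change of 0.71 ± 0.18 (SE, adjusted p = 0.0208). MOLM-13 had far lower values, 247, 228 and 302 against 331 and 444, which did not overlap (0.57 ± 0.22, adjusted p = 0.251). U937 had the highest, 7845 and 5131 against 9468 and 6798, and there the groups overlapped (0.34 ± 0.29, adjusted p = 0.474).

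ITGB7 showed the greatest log2 fold change of the 9 members in HL-60, at 1.75 ± 0.33 (SE, adjusted p = 0.00623). Its values in HL-60 were 51, 38 and 42 with pLKO and 167, 86 and 226 with shRNF5. MOLM-13 gave 365, 222 and 330 against 436 and 753 (0.94 ± 0.30, adjusted p = 0.189). In U937 the transcript was scarce, at 9 and 18 against 20 and 42 (1.12 ± 0.71, adjusted p = 0.332). No shRNF5 library of any line fell within the pLKO range, although in U937 the nearest values of the 2 groups differed by only 2 (18 and 20). The HL-60 calls of ITGB7 and ITGA6 held without any 1 library, at 1.45 to 2.14 and 0.56 to 0.87. ZNF740, which overlaps ITGB7 on the map, had values of 415 to 1588.

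Among the beta2 integrins, the shared chain ITGB2 was called higher in HL-60. ITGB2 lies on chromosome 21 from 46305868 to 46351904 (reverse strand). HL-60 held 1787, 2552 and 2047 with pLKO and 3197, 3674 and 4472 with shRNF5, with no overlap and a log2 fold change of 0.83 ± 0.16 (SE, adjusted p = 0.0076). MOLM-13 held 7240, 4918 and 6297 against 5545 and 7282 (0.06 ± 0.20, adjusted p = 0.888). U937, with the highest ITGB2 values, held 16291 and 9127 against 15747 and 12049 (0.18 ± 0.32, adjusted p = 0.752). The groups overlapped in both of these lines. The antisense transcript ITGB2-AS1, whose reads cannot be told from those of ITGB2 unless strand was counted, had values of 66 or less.

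None of the 3 alpha chains of the beta2 family was called higher by limma in any line, and the number with an unadjusted p under 0.05 and a higher mean was likewise 0. These genes lie close together on chromosome 16, ITGAL from 30483979 to 30534888, ITGAM from 31271288 to 31344213 and ITGAX from 31366455 to 31394320, all on the forward strand. ITGAX was called lower in U937, with 1301 and 463 in pLKO libraries against 197 and 415 in shRNF5 libraries (log2 fold change -1.44 ± 0.48, SE, adjusted p = 0.0914). The groups did not overlap, but the call was lost in 3 of 4 fits that left out 1 library and held without pLKO replicate 3. Without pLKO replicate 2, the library at 1301, the difference was -0.69 and the adjusted p 0.46. ITGAX overlapped in MOLM-13, at 167, 51 and 425 against 89 and 255, and in HL-60, at 29, 19 and 13 against 18, 13 and 19.

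ITGAM was called in no line as each was fitted. MOLM-13 had 807, 443 and 966 with pLKO and 718 and 1060 with shRNF5, U937 had 438 and 218 against 309 and 308, and HL-60 had 105, 57 and 82 against 112, 70 and 260. In HL-60 a single shRNF5 library at 260 stood apart from the others, and the log2 fold change was 0.68 ± 0.41 (SE, adjusted p = 0.265). Without shRNF5 replicate 2, the library at 70, ITGAM was called (1.10, adjusted p = 0.0709), and without shRNF5 replicate 3, the library at 260, the log2 fold change was 0.16 (adjusted p = 0.779). It was also called with a replicate block and a transcript length correction together (0.74, adjusted p = 0.0879). ITGAL, the LFA-1 alpha chain, was also called in no line. Its values were 8003, 8218 and 11377 against 7180 and 8878 in MOLM-13, 2140 and 1397 against 1520 and 2075 in U937, and 935, 1273 and 1103 against 1221, 1171 and 1067 in HL-60. The 95% interval of the ITGAL log2 fold change ran from -0.62 to 0.25 in MOLM-13, from -0.59 to 0.67 in U937 and from -0.23 to 0.38 in HL-60.

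The cells were checked against markers. Of 12 myeloid markers, 1 (CD68) was listed at 0 throughout MOLM-13 and 2 (CD14 and CD68) in U937 and HL-60. Of 11 markers of other lineages found in the files, 11 were at 0 in MOLM-13, 8 in U937 (summed value 159 to 360 with pLKO and 89 to 94 with shRNF5) and 10 in HL-60 (22 to 34 and 38 to 44). The summed myeloid markers moved with the construct: they ranged from 44261 to 48827 with pLKO and from 25561 to 28971 with shRNF5 in U937, and from 120560 to 146695 and from 163930 to 243799 in HL-60. The ranges overlapped in MOLM-13, at 74739 to 105836 and 81305 to 107185. Of the single markers, ELANE, AZU1 and CSF3R were called lower in U937, PTPRC, MPO, ELANE, AZU1 and LYZ were called higher and CD33 lower in HL-60, and 0 were called in MOLM-13. The sums rest on a few genes. Most of the HL-60 sum is MPO, with a mean of 120628 with pLKO and 184755 with shRNF5. Most of the U937 sum is LYZ, AZU1 and ELANE, of which AZU1 went from a mean of 13028 to 2508 and ELANE from 10158 to 4929. The member ITGAM is itself 1 of the 12 markers. All 5 members called in HL-60 were higher, as the HL-60 sum was. In U937, ITGAX was lower, as the sum was, whereas ITGA5 and ITGB1 were higher. The part of these shifts in the integrin results was not tested. In such bulk RNA, fewer cells of a kind and less RNA per cell cannot be told apart.

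ITGA4, on chromosome 2 from 182321929 to 182403667 (forward strand), was called in no line either. MOLM-13 had 3822, 4939 and 4511 with pLKO and 5040 and 5000 with shRNF5, which did not overlap but differed by a log2 fold change of only 0.19 ± 0.15 (SE, adjusted p = 0.542). U937 had 9827 and 6035 against 9276 and 5346 (-0.13 ± 0.33, adjusted p = 0.828), and HL-60 had 8188, 6418 and 8925 against 8454, 6514 and 5630 (-0.20 ± 0.17, adjusted p = 0.446). CERKL, which overlaps ITGA4, is listed at 0 in every library.

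**Figure D2:**
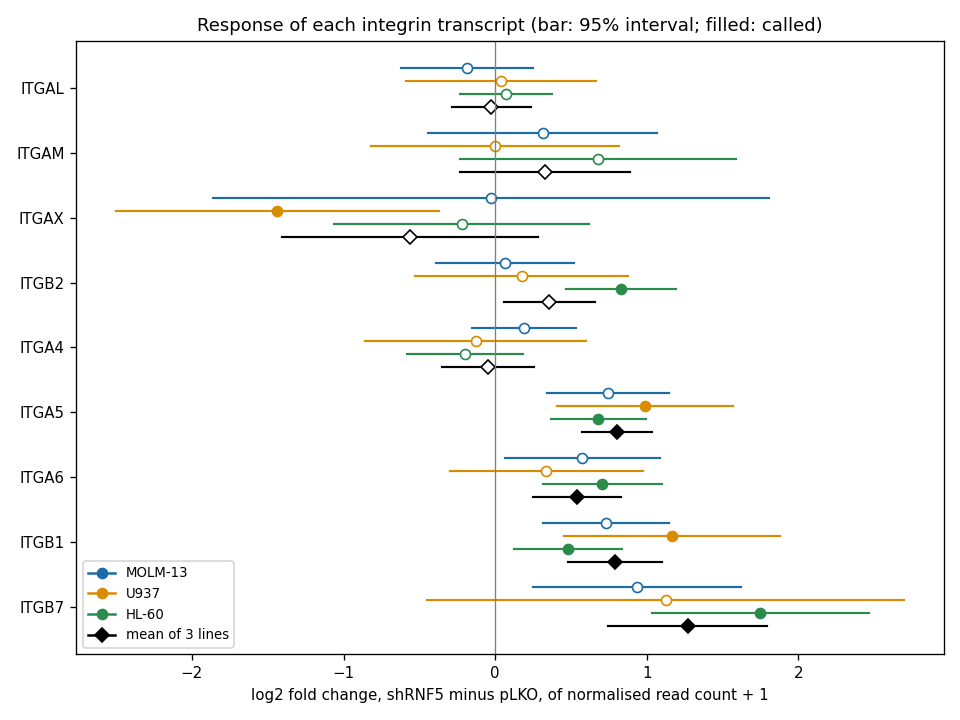
Log2 fold change of shRNF5 against pLKO (horizontal axis) for each integrin transcript in MOLM-13, U937 and HL-60 (circles) and as the mean of the 3 lines (diamonds), with 95% intervals and filled marks for called results. The diamonds of ITGA5, ITGA6, ITGB1 and ITGB7 are filled and lie between 0.54 and 1.27, whereas those of ITGAL and ITGA4 lie at -0.02 and -0.05.

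By number, limma called 0 of the 9 members in MOLM-13, 3 in U937 (2 higher and 1 lower) and 5 in HL-60 (all higher). At an unadjusted limma p under 0.05 the numbers were 4, 3 and 5, with the lines in the same order. How many of all genes reached that unadjusted p was not counted, so these numbers have no background to be read against. The share of all genes called higher was 1.03% (MOLM-13), 6.92% (U937) and 13.6% (HL-60), and in U937 8.74% were called lower. All shRNF5 libraries stood above all pLKO libraries for 5 members (MOLM-13), 3 members (U937) and 4 members (HL-60), where 19.6%, 29% and 19.9% of all genes did. The median log2 fold change of the members was 0.31, 0.18 and 0.68 in the 3 lines, beside 0.01, 0.00 and 0.00 over all genes tested. Because the members are few and share partners, these counts describe them and test nothing.

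Over the 3 lines jointly, in one limma fit of the 11072 genes above 0 in all of them, 4 of the 9 members were called higher and 0 lower, where 7.62% of all genes were called higher. The mean log2 fold change was 0.80 ± 0.11 (SE) for ITGA5 (adjusted p = 0.000278), 0.79 ± 0.15 for ITGB1 (adjusted p = 0.00237), 1.27 ± 0.25 for ITGB7 (adjusted p = 0.00349) and 0.54 ± 0.14 for ITGA6 (adjusted p = 0.0144). ITGB2 was at 0.36 ± 0.14, under the 0.4 limit though its adjusted p was 0.0954, and passed it without U937 pLKO replicate 2 (0.50), U937 shRNF5 replicate 3 (0.42) or HL-60 pLKO replicate 2 (0.40). The other members were at 0.33 ± 0.27 (ITGAM), -0.02 ± 0.12 (ITGAL), -0.05 ± 0.14 (ITGA4) and -0.56 ± 0.40 (ITGAX), with adjusted p between 0.363 and 0.918, and ITGAX was called lower without MOLM-13 pLKO replicate 2 (-0.82, adjusted p = 0.0979). A log2 fold change above 0 in every line was found for 5 members, against 13.9% of all genes, and ITGA5 and ITGB7 were the 2 whose shRNF5 libraries lay above the pLKO libraries throughout, against 2.09% of all genes.

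Whether a member responded differently in 2 lines was tested for the 3 pairs of lines in the same fit, 27 tests in all. None passed an adjusted p of 0.1, and 1 had an unadjusted p under 0.05 (ITGB2 in MOLM-13 against HL-60, a log2 difference of -0.77 with a 95% interval from -1.47 to -0.07 and an adjusted p of 0.187). Over all genes, 15.4% of responses differed for MOLM-13 against U937, 8.82% for MOLM-13 against HL-60, and 37.2% when U937 was set against HL-60. The smallest adjusted p among the members was 0.16, for ITGB1, whose log2 fold change was 0.69 higher in U937 than in HL-60 (95% interval -0.07 to 1.44), and which passed without U937 pLKO replicate 2 (1.01, adjusted p = 0.0682) or U937 shRNF5 replicate 3 (1.10, adjusted p = 0.0359). ITGB2 passed for U937 against HL-60 without U937 pLKO replicate 3 (-1.07, adjusted p = 0.0229). With all libraries, the calls of ITGB2 and ITGAX in 1 line each are not shown to be particular to that line.

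Ratios between chains that pair were then taken within each library, where the scaling of the library cancels. The log2 ratio of ITGA4 to ITGB1 was 0.91, 0.82 and 0.62 in the pLKO libraries of MOLM-13 and 0.23 and 0.26 in its shRNF5 libraries. It was 1.77 and 1.72 against 0.44 and 0.47 in U937, and 1.87, 1.64 and 1.87 against 1.15, 1.42 and 0.77 in HL-60. The shRNF5 libraries were thus lower without overlap in all 3 lines, by 0.54, 1.29 and 0.68 on average. ITGB1 was higher with shRNF5 and ITGA4 was called in no line, so this fall largely restates their responses given above. In U937 the 2 pLKO libraries differed from each other by a wide margin in both ITGA4 and ITGB1, yet their ratios nearly coincided. The ratio of ITGA5 to ITGB1, by contrast, overlapped between the groups in all 3 lines, with mean differences of 0.01, -0.18 and 0.20.

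Other ratios differed without overlap in some lines. ITGA6 to ITGB1 was lower without overlap in U937, where ITGB1 was called and ITGA6 was not (1.45 and 1.49 against 0.47 and 0.82). ITGB7 to ITGB1 was higher without overlap in HL-60, at -5.46, -5.76 and -5.86 against -4.51, -4.83 and -3.87. ITGAL to ITGB2 was lower without overlap in HL-60, at -0.935, -1.003 and -0.892 against -1.39, -1.65 and -2.07. ITGAX to ITGB2 was lower without overlap in U937 (-3.65 and -4.30 against -6.32 and -4.86) and in HL-60 (-5.95, -7.07 and -7.30 against -7.47, -8.14 and -7.88). ITGA4 to ITGB7 was lower without overlap in HL-60, at 7.33, 7.40 and 7.73 against 5.66, 6.24 and 4.64, the largest mean difference of the ratios taken (-1.97). ITGB2 to ITGB1, chains that do not pair, was lower without overlap in MOLM-13 (-0.67 on average) and U937 (-0.99). Ratios were not tested, and they describe RNA, not chains at the surface. How often the ratios of other gene pairs separate was not measured. With so few libraries separation is common, as single genes stood wholly higher with shRNF5 in 19.6% (MOLM-13), 29% (U937) and 19.9% (HL-60) of cases. These shares count genes separated upward only, whereas a ratio could separate either way. The share separated in either direction is larger and was not taken.

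**Figure D3:**
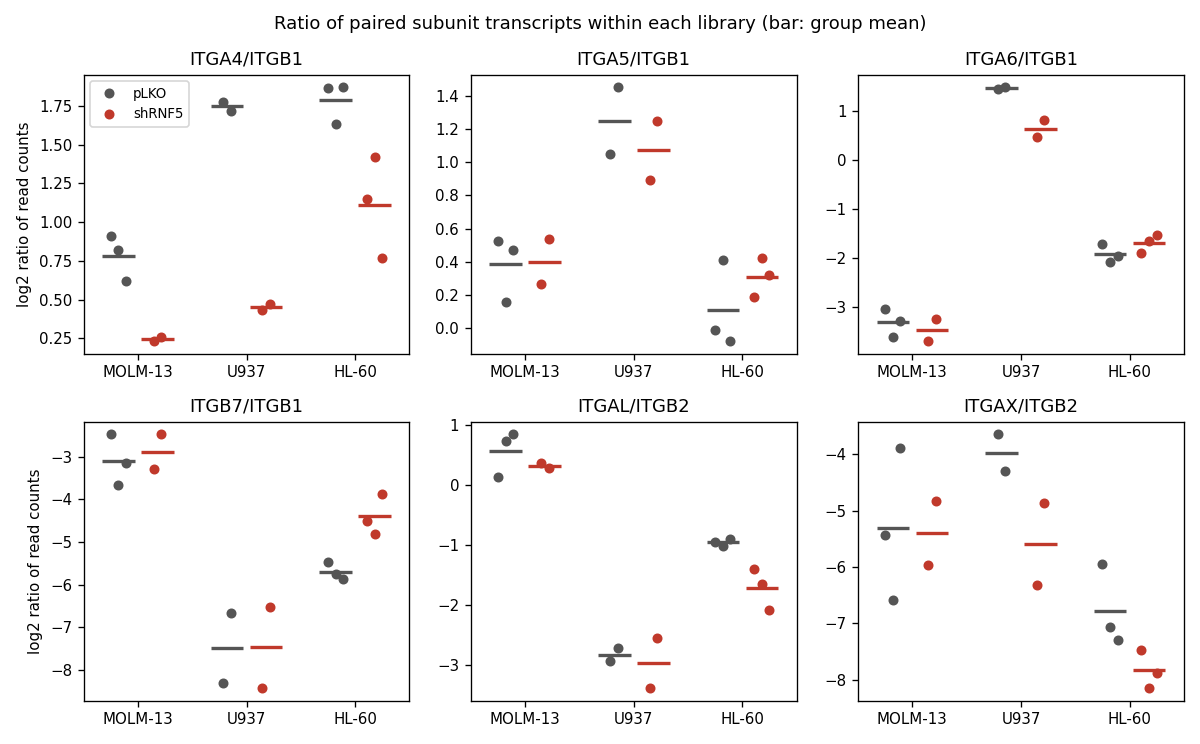
Log2 ratio of the read counts of 2 subunit transcripts within each library (vertical axis), by cell line, with grey points for pLKO, red points for shRNF5 and a bar at each group mean. In the ITGA4/ITGB1 panel the red points lie below the grey points in each of the 3 lines, while in the ITGA5/ITGB1 panel they overlap.

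The lines differ in which integrins they express. Levels are given here as shares of a library's summed value, scaled to 1000000, per kb of reference transcript (2806 to 6781 bases), as means over pLKO libraries, with no test since each line was normalised separately and with the limit that a 3′-end kit would make the length division wrong. In MOLM-13, ITGB2 (86.3) and ITGAL (70.7) stood highest with overlapping ranges, an order that turns without the length division (ITGB2 at 242 and ITGAL at 363, with no overlap). ITGA5 (31.3), ITGB1 (27.3) and ITGA4 (25.7) followed, also overlapping, and ITGAM (6.18), ITGB7 (4.29), ITGAX (1.83) and ITGA6 (1.76) were lowest. In U937, ITGB2 reached 278, and ITGA5 (79.2), ITGA4 (71.8) and ITGA6 (68.5) overlapped below it, above ITGB1 (38.7), ITGAL (21.2), ITGAX (11.6), ITGAM (4.26) and ITGB7 (0.298). In HL-60, ITGA4 (71.4) came first, ahead of ITGB2 (46.7), ITGB1 (37.2) and ITGA5 (35.3), where the range of ITGB1 overlapped those of ITGB2 and ITGA5. Without the length division ITGB2 (131) came below ITGA5 (150) and ITGB1 (139). Lower in HL-60 stood ITGAL (13.3), ITGA6 (6.40), ITGAM (1.07), ITGB7 (0.961) and ITGAX (0.270). Undivided, ITGA4 also came ahead of ITGA5 in MOLM-13 (174 and 133) and in U937 (487 and 337). U937 and MOLM-13 were farthest apart, by ratio of these levels, in ITGA6. The shRNF5 libraries of HL-60 carried ITGB2 at a mean of 81.8, within the range of the MOLM-13 pLKO libraries (67.8 to 101).

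Likeness across libraries was described by Pearson's r of log2(value + 1) after removing the mean of each line, over 15 libraries that share line and construct. ITGA5 and ITGB1 were the most alike of the 36 pairs of members, with r = 0.92, followed by ITGA5 and ITGA6 (0.81) and ITGA6 and ITGB1 (0.79). ITGB2 was closest to ITGA6 (0.69) and ITGAM (0.60), and ITGA4 and ITGB7 ran opposite (-0.42). Among 10571 genes with a mean value of at least 50, SSH1 (0.97), EFCAB14 (0.96) and EFR3A (0.96) were most like ITGB1, and ITGA5 ranked 37. PTTG1IP (0.97), TERF2IP (0.96) and GNAI2 (0.94) were most like ITGB2. PTTG1IP lies on chromosome 21 on the same strand as ITGB2, with 12049 bases between them.

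The genes around the integrins were counted in 6 lists holding 101 symbols, of which 100 were matched and 71 (MOLM-13), 77 (U937) and 70 (HL-60) were tested. MOLM-13 had 4 called higher and 3 lower, U937 13 and 6, HL-60 26 and 5. Over all genes the shares were 1.03% higher and 1.01% lower in MOLM-13, 6.92% and 8.74% in U937, and 13.6% and 12.3% in HL-60, and the counts of each list below are to be read against these. The 6 of 77 called lower in U937 are near the share of all genes. These counts rest on single libraries in 2 lines: in MOLM-13 the 7 calls became 11 without pLKO replicate 1 and 0 without any other library, and in U937 the 19 calls became 20 without pLKO replicate 3 and 0 without any other. The adaptors and kinases on the cytoplasmic side of the integrin were called higher in 1 of 24 (MOLM-13), 8 of 22 (U937) and 7 of 22 (HL-60), beside 1.03%, 6.92% and 13.6% of all genes, and none was called lower. VCL, which encodes vinculin, the protein that strengthens the link to actin, rose in MOLM-13 (log2 fold change 0.92 ± 0.16, SE) and U937 (0.99 ± 0.23). NEDD9, an adhesion scaffold, rose in U937 (1.01 ± 0.35), and the tyrosine kinase SRC (1.85 ± 0.36) rose in HL-60, from a low mean of 16.7 to 64.

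Of the integrin activators and inhibitors, 1 of 19 was called higher and 1 lower in MOLM-13, beside 1.03% and 1.01% of all genes. In U937 4 and 1 of 19 were called, beside 6.92% and 8.74%, and in HL-60 3 and 3 of 19, beside 13.6% and 12.3%. The HL-60 counts and the 1 lower in U937 are near these shares. FLNA, the filamin that competes with talin for the beta tail, rose in MOLM-13 (0.79 ± 0.16), where the GTPase RAP1B fell (-0.68 ± 0.15). FERMT1, a kindlin that helps talin activate integrins, rose in U937 (1.68 ± 0.45) together with the RAP1 effector RASSF5 (1.21 ± 0.25), while RASGRP2, the exchange factor for RAP1, fell (-0.74 ± 0.25). In HL-60 the blood kindlin FERMT3 (0.78 ± 0.16) and DOK1 (0.85 ± 0.20), whose protein competes with talin, rose. FERMT1 (-1.60 ± 0.33), which was scarce there, fell from a mean of 54 to 17.3.

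Integrin ligands made by the cells were called higher in 2 of 8 in MOLM-13 and 6 of 9 in HL-60, and lower in 2 of 11 in U937, beside 1.03% and 13.6% of all genes called higher and 8.74% lower. THBS1, encoding the matrix protein thrombospondin, rose in MOLM-13 (2.28 ± 0.37) from a mean of 35.7 to 169.5, and in HL-60 (3.14 ± 0.44) from 7.0 to 66.3. LAMC1, a laminin chain, rose in MOLM-13 (0.73 ± 0.15). FN1, encoding fibronectin, rose in HL-60 (2.90 ± 0.61) with libraries that spread widely (62.0 ± 65.0, SD, n = 3). ICAM5 (-2.44 ± 0.46) and ICAM4 (-1.11 ± 0.31), both ligands of LFA-1, fell in U937.

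Membrane partners of integrins, mostly tetraspanins, were called lower in 1 of 11 in MOLM-13 (SLC3A2, -0.73 ± 0.16) and 1 of 10 in U937 (CD37, -1.003 ± 0.31), beside 1.01% and 8.74% of all genes. In HL-60 5 of 11 were called higher and 1 lower, beside 13.6% and 12.3% of all genes. The 1 lower in U937 and the 1 lower in HL-60 are near these shares. In HL-60 CD82 (2.01 ± 0.26) and CD9 (1.46 ± 0.40) rose and CD37 (-0.71 ± 0.19) fell. CD9 was scarce there, with a mean of 6.3 with pLKO and 18.7 with shRNF5. Of the other integrin subunits, 0 of 3 were called in MOLM-13. In U937 ITGB5 (1.50 ± 0.45) rose while ITGA7 (-1.30 ± 0.28) and ITGAE (-1.11 ± 0.32) fell, of 9 tested, and in HL-60 ITGAV (0.70 ± 0.26) rose and ITGA2 (-1.82 ± 0.24) fell, of 4. Over all genes, 6.92% were called higher and 8.74% lower in U937, and 13.6% and 12.3% in HL-60. Among adhesion molecules outside the family, CD44 fell in MOLM-13 (-0.76 ± 0.13) and rose in HL-60 (3.19 ± 0.56), where its mean went from 5.0 to 57.3, and CD99 rose in HL-60 (1.16 ± 0.17). All these are limma log2 fold changes with an adjusted p under 0.1.

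**Figure D4:**
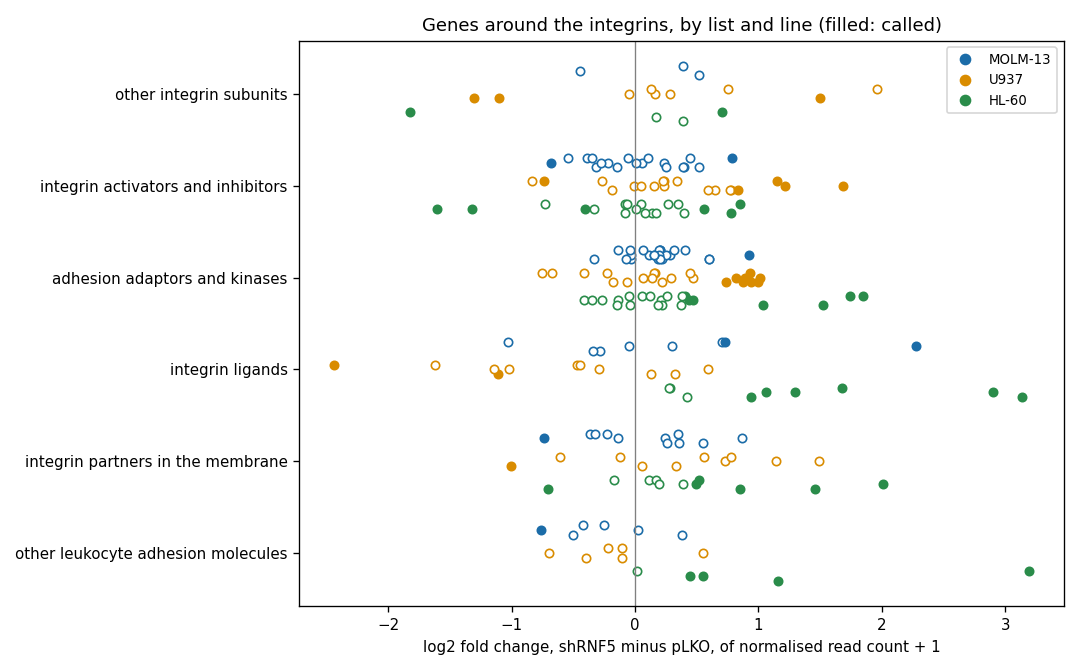
Log2 fold change of shRNF5 against pLKO (horizontal axis) for each tested gene of 6 lists around the integrins, coloured by cell line, with filled points for called genes. All filled points of the adaptors and kinases lie above 0, and the filled points of the integrin ligands lie above 0 in MOLM-13 and HL-60 and below 0 in U937.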

How the data were processed

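RNA-seq libraries of MOLM-13, U937 and HL-60 were grouped by line and construct from the sample labels. The authors' steps were adapter trimming, STAR alignment (hg19), featureCounts (Subread) for the counting, and edgeR through SARTools for a normalisation of each line by itself. The deposited values are a score: counts scaled per library, then rounded, in which low genes appear only as 0. A count model was therefore not used. The gaps between rounded values gave each library's factor, hence its counted reads. The strand setting of the counting is not given in the sources used here.

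Genes above 0 in any library of a line were tested with limma 3.58.1 in R 4.3.3 on log2(value + 1), moderating variances towards a trend on mean level, and p-values were adjusted over all genes tested. The mean of the 3 lines and the differences between lines came from one fit of all libraries. The procedure was also run on simulated data, and as that outcome is not given here, no accuracy is claimed from it. Coordinates and transcript lengths came from GENCODE on GRCh37, and promoters from RefSeq on GRCh38.p14. Figures were drawn with matplotlib in Python.

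The members and the lists were chosen with earlier results of these data known. From each list at most 2 called rises and 2 called falls per line are named, by absolute log2 fold change, and for ITGB1 and ITGB2 the 3 genes most alike. Some results for single genes are not reported here. Alternatives were a threshold of 0.05, one fit, replicate blocks, 2 other pseudocounts (0.5, 10), a minimum mean of 50, other scalings, no variance trend, a transcript length correction and leaving out each library. Across all tested genes of known length, log2 fold changes went with transcript length, at a Spearman correlation of 0.27 (MOLM-13), 0.16 (U937) and -0.21 (HL-60). The cause of these length trends was not tested. The replicate numbers were checked for pairing by correlating the deviations of same-numbered libraries.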

Additional observations from a re-analysis of the deposited data

Results flagged for a closer look

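No member responded differently between 2 lines at the threshold used, but 18 of the 22 named list genes that could be tested in all lines did in at least 1 pair, by a test of the difference in the one limma fit of all libraries (adjusted p under 0.1 over 11072 genes). Of these, 8 differed in 1 pair of lines, 9 in 2 pairs and 1 in all 3, and the largest log2 difference of each is given. By pair, 16 passed for U937 against HL-60, 6 for MOLM-13 against U937 and 7 for MOLM-13 against HL-60, beside 37.2%, 15.4% and 8.82% of all genes. FERMT1, the kindlin called higher in U937 and lower in HL-60, was the gene that differed in all 3 pairs (3.28 higher in U937 than in HL-60, adjusted p = 0.00123). CD44 gave -3.95 for MOLM-13 minus HL-60 (adjusted p = 0.00545).

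Responses lower in U937 than in HL-60 were found for THBS1 (-2.54), ICAM4 (-2.41), SRC (-2.27), DOK1 (-1.69), CD99 (-1.56), ITGAE (-1.50), CD82 (-1.23) and RASGRP2 (-1.004). Responses higher in U937 than in HL-60 were found for NEDD9 (1.43), FLNA (1.23) and VCL (1.04). Of the adaptors and kinases among them, VCL and NEDD9 were called higher in U937 (-0.04 and -0.42 in HL-60, not called) and SRC in HL-60 (-0.42 in U937, not called).

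MOLM-13 minus U937 gave 1.69 for ITGA7, 1.36 for CD37, -1.49 for RASSF5 and -0.91 for RAP1B. MOLM-13 minus HL-60 gave -1.13 for SLC3A2. These genes were named for their size in 1 line, so a difference from another line is partly fixed by that choice.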

How the results depend on the processing

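The calls of ITGA5, ITGA6, ITGB1 and ITGB7 over the 3 lines together held under every alternative that could be run (24 or 25 each), with mean log2 fold changes of 0.73 to 0.88, 0.44 to 0.64, 0.65 to 0.93 and 1.09 to 1.44. With a mean value of at least 50, ITGB7 in U937 was not tested, which left 3 members called over the 3 lines. Calls in single lines were less firm. The members called in U937 numbered 0 at an adjusted p under 0.05, 0 without the variance trend and 0 to 1 when a library was left out (ITGAX without pLKO replicate 3). In one fit over all libraries U937 had 3 calls, all higher, as ITGAX lost its call (adjusted p = 0.166) and ITGB7 gained one (0.0858), and ITGAX was lost with equal-sum scaling too (0.108). ITGB1 in HL-60 lost its call at 0.05, in one fit (0.167) and without the trend (0.126). The members called in MOLM-13 numbered 1 (ITGA5) in one fit, 2 (ITGA5 and ITGB1) with the transcript length correction and 0 to 2 when a library was left out (both chains without pLKO replicate 1). Left-out fits in these lines rest on few libraries, and where an arm kept 1 library it was assumed to vary like the other. ITGB1 in U937 against HL-60 passed without U937 pLKO replicate 2 (1.01) and without U937 shRNF5 replicate 3 (1.10), and ITGB2 without U937 pLKO replicate 3 (-1.07), so that 0 to 1 members differed between these lines. The pathway list genes called in MOLM-13 numbered 0 at 0.05, 4 in one fit, 1 without the trend and 0 to 11 with a library left out. In U937 they numbered 4, 29, 1 and 0 to 20. For 31 results on named list genes, 466 refits gave 348 of the same call, 118 lost calls and no reversed direction.

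Directions reversed in members that were not called. ITGAM in U937 was 0.013 under median-of-ratios scaling, and ITGAL in U937 was -0.012 under equal-sum scaling and -0.069 with the length correction. With a library left out, log2 fold changes ranged in MOLM-13 from -0.82 to 0.72 (ITGAX), from -0.017 to 0.59 (ITGAM) and from -0.13 to 0.26 (ITGB2), in U937 from -0.50 to 0.50 (ITGAM), from -0.53 to 0.27 (ITGA4), from -0.27 to 0.35 (ITGAL) and from -0.24 to 0.59 (ITGB2), and in HL-60 from -0.49 to 0.061 (ITGAX) and from -0.042 to 0.18 (ITGAL). The mean of the 3 lines then ranged from -0.13 to 0.078 (ITGAL) and from -0.18 to 0.087 (ITGA4).

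Whether the replicate numbers pair the libraries could not be settled. Deviations of same-numbered libraries correlated at -0.17 and -0.53 in MOLM-13 and at 0.26 in U937, which shares 1 number. These values cannot decide it. The deviations within the shRNF5 arm of MOLM-13 and within each arm of U937 mirror each other, so each value recurs with the opposite sign. In HL-60 same-numbered libraries gave 0.50, 0.16 and -0.11 and differently numbered ones -0.60 to 0.40, ranges that overlap. With a replicate block, 3 members were called in MOLM-13 (ITGA5, ITGB1 and ITGB7), also with the length correction, and ITGAX there read 0.70 and 0.61. No shRNF5 library of MOLM-13 shares a number with pLKO replicate 3, so the block gave that library no weight. Without the length correction, the block values equal those of the fit that left it out (0.70 for ITGAX and 0.89 for ITGA5). In U937 only number 3 has both constructs, so its part of the blocked mean rests on 1 library of each. Over the 3 lines ITGAX then read 0.11 and 0.061 and ITGAL 0.21 and 0.16, and ITGB2 was called as well (0.44 and 0.43). In HL-60 the block left 5 members called, and 6 with the length correction (ITGAM added, 0.74, adjusted p = 0.0879). Beyond this weighting of libraries, the causes were not tested.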
